A study of Mus musculus with 6 samples.

Results

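The proneural and Olig genes are basic helix-loop-helix (bHLH) transcription factors that commit progenitor cells to neuronal and glial fates. 9 of them were chosen by gene symbol from the 24453 symbols counted in each library: the neurogenins Neurog1, Neurog2 and Neurog3, the NeuroD genes Neurod1 and Neurod2, the Olig genes Olig1, Olig2 and Olig3, and Bhlhe22. RNA sequencing covered 3 libraries labelled Ring1a-/- Ring1b-/- (K1, K2 and K3) and 3 labelled Control (C1, C2 and C3), all of epidermal cells from back skin of mice at postnatal day 0. The sort took EpCAM+ Sca1+ cells with a high level of α6-integrin, a gate for interfollicular epidermis enriched in progenitors. The genes Ring1 and Rnf2 encode Ring1a and Ring1b, ubiquitin ligases of Polycomb repressive complex 1, which keeps developmental genes off. The deleted part of each gene, how it was deleted, the strain and the number of animals behind a library are not given in the sources used here. The p-values therefore measure the spread among 6 libraries, part of which may be technical. The comparison addresses what the complex does in skin epithelium.

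A proneural factor works as a dimer with a widely expressed E-protein, and the pair binds the E-box, a short DNA motif written CANNTG. Id proteins tie up the E-proteins, and Hes and Hey proteins, switched on by Notch signalling, repress proneural genes, so that few cells of a field become neurons. In skin, neurons lie outside the epidermis, and the related factor Atoh1 makes the Merkel cells that sense touch. Many regulators of this kind are bound by Polycomb complexes in embryonic stem cells, where their promoters are rich in CpG.

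The promoters of 4 of these genes are shown because they span the range of CpG content in the family. They are windows from 250 bases before to 50 bases after the start of the RefSeq gene, from RefSeq on GRCm38.p6, with each E-box (CANNTG, which reads the same way on both strands) in capitals. 7 of the 9 genes matched a window, and Olig1 and Bhlhe22 did not. The windows of Neurog1 (chr13:56252131-56252430, minus strand), Neurod1 (chr2:79456587-79456886, minus strand), Olig2 (chr16:91225300-91225599, plus strand) and Olig3 (chr10:19356289-19356588, plus strand) read, 5′ to 3′:
Neurog1: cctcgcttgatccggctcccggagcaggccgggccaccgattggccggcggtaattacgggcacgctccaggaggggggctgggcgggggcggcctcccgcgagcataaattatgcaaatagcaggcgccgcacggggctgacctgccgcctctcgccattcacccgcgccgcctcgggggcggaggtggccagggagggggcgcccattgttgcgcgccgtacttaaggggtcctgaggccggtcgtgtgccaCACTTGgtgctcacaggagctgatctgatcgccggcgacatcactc
Neurod1: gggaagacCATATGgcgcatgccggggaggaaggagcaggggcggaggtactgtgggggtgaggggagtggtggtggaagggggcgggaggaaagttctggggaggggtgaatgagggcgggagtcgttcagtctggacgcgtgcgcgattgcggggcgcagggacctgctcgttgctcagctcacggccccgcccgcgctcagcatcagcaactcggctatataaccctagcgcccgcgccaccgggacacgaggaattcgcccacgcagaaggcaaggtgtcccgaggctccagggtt
Olig2: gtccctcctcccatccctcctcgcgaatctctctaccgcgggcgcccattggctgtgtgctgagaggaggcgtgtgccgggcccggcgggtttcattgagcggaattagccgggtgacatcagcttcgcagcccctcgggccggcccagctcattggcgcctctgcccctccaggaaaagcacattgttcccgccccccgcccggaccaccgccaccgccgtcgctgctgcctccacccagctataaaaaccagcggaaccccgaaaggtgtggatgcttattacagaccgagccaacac
Olig3: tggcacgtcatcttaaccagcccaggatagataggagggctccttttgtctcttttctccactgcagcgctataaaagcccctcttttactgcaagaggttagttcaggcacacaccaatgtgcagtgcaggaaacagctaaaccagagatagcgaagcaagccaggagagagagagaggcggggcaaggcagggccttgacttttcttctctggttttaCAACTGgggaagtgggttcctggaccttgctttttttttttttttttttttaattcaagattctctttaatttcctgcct

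CpG content was expressed as observed over expected, the number of CpG pairs set against that given by the C and G content of the window. It was 0.891 in the Neurog1 window, 0.837 in that of Neurod1, 0.815 in that of Olig2, 0.697 in that of Neurod2, 0.570 in that of Neurog2, 0.547 in that of Neurog3 and 0.252 in that of Olig3. The median of all 32841 windows was 0.384, so 6 of the 7 lay above it and Olig3, with 46.0% GC, lay below. The 757 genes called higher in the knockout-labelled libraries that had a window had a median of 0.726, over the first window of each gene. The windows behind 0.384 were limited neither to the first of each gene nor to tested genes, so the sets are unlike. No test was made between these sets. An E-box occurred in 5 of the 7 windows and in 72.3% of all windows, and the windows of Neurog2 and Olig2 held none. A motif match here is a description of the letters in the window.

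**Figure D1:**
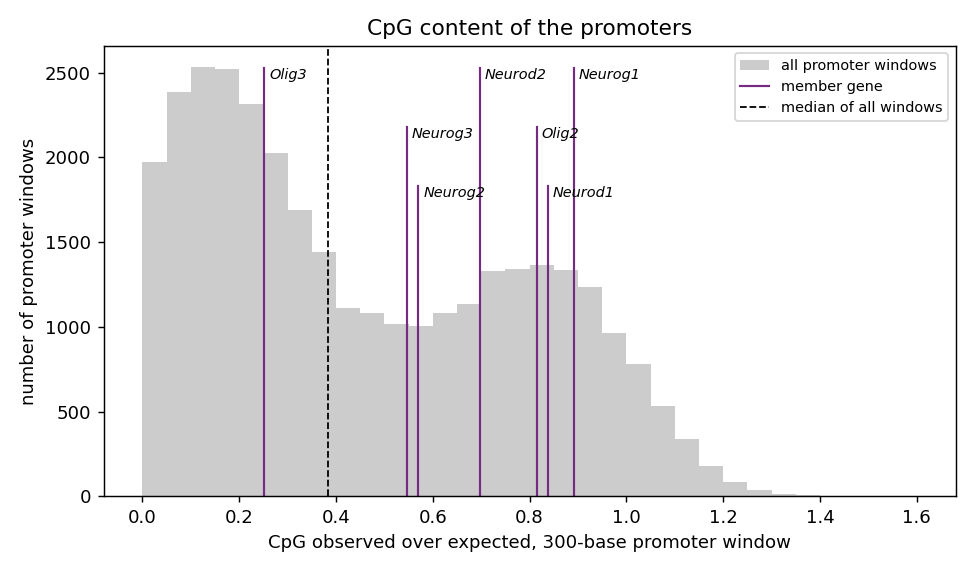
CpG observed over expected (x axis) in all 300-base promoter windows (grey bars, number of windows on the y axis), with the median of all windows as a dashed line and the 7 member genes as purple lines. Olig3 lies left of the median of 0.384 and the other 6 lie right of it, up to 0.891 for Neurog1.

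The libraries held 18951665 to 31187270 counts. The targeted genes did not separate the labels. Ring1 had 1.66, 5.20 and 14.2 CPM (counts scaled to a common depth by TMM library sizes) in K1, K2 and K3, and 30.9, 17.1 and 3.90 CPM in C1, C2 and C3, so that K3 was above C3. It was not called, at a log2 fold change of -1.29 with an SE of 0.83 (edgeR quasi-likelihood test, adjusted p = 0.389). Rnf2 had 59.5 ± 4.35 CPM in knockout-labelled and 51.3 ± 10.5 CPM in control-labelled libraries (SD, n = 3; edgeR adjusted p = 0.575), and counts outside a deleted part check no label. The libraries are therefore named by their labels, and every direction is that of the labels. On the first principal component, with 56.7% of the variance, K1, K2 and K3 lay at 93.5, 68.4 and 57.8. C1, C2 and C3 lay at -84.6, -64.0 and -71.0 on it. On the second principal component, with 18.5% of the variance, K1 and C1 stood apart from the other 4. Across all 14890 genes with enough counts to test, 1512 (10.2%) were called at an adjusted p under 0.05, 1068 higher (7.17%) and 444 lower (2.98%). Higher calls were thus 70.6% of all calls, but 45.5% with an offset for GC content and length. Markers of basal epidermis were high in both groups, with summed levels of 23900 to 28700 CPM in knockout-labelled and 26000 to 40500 CPM in control-labelled libraries over 7 genes, of which Trp63, the master regulator of stratified epithelium, was called lower (log2 fold change -0.79; edgeR adjusted p = 0.0176). That call was lost without C2, C3, K2 or K3 (edgeR adjusted p = 0.0683 to 0.0880).

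None of the proneural and Olig genes was called, and 6 of the 9 had at most 3 counts in every library. 4 of the 9 (Neurog2, Neurog3, Neurod2 and Olig3) had no count in any of the 6 libraries. Neurod1 and Neurog1 had 1 and 2 counts in all, Olig2 had 7 and Bhlhe22 had 12. Olig1 was the only member with enough counts to test, and it supplied 273 of the 295 counts of the family, or 92.5%. Of the 22 counts of the other 8 genes, 4 fell in knockout-labelled and 18 in control-labelled libraries.

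The 1 tested member was not called by edgeR, against 10.2% of all tested genes called, and its unadjusted p was 0.763. With no count filter, 5 members entered the edgeR fit and 0 were called, against 8.74% of 19884 genes, and 0 of the 5 had an unadjusted p under 0.05 (smallest 0.157). DESeq2 gave a p to the same 5, the smallest 0.290, and called 0, with the adjusted p of 4 of them left undefined by its own filter. limma-voom tested Olig1 alone and did not call it. The CPM of the 2 groups overlapped for Olig1, whereas they did not overlap for 32.4% of tested genes. The other 8 members had too few counts for overlap to be informative.

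**Figure D2:**
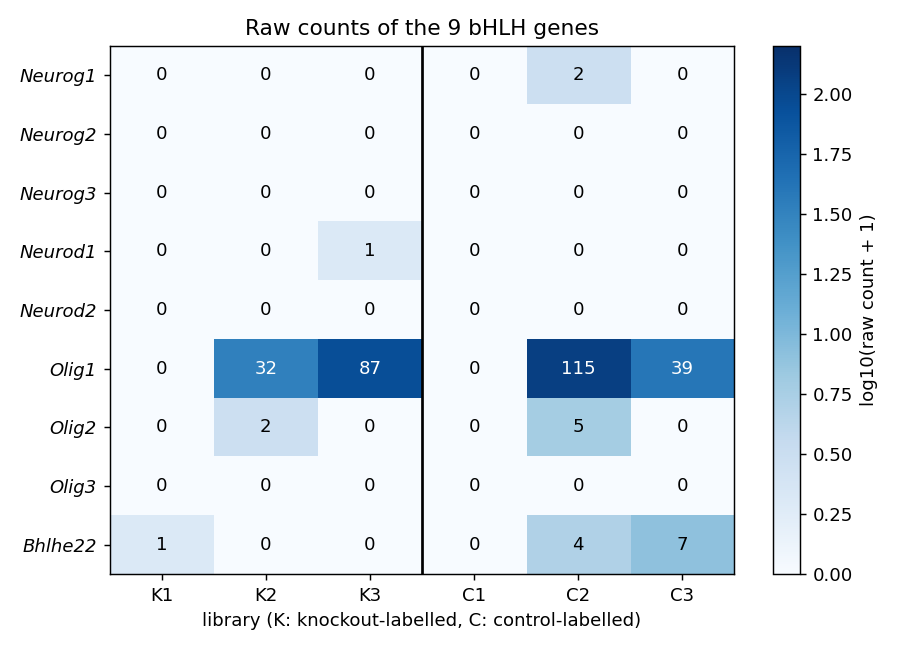
Raw counts of the 9 genes (rows) in each library (columns, knockout-labelled K1 to K3 left of the line and control-labelled C1 to C3 right of it), with colour for log10 of the count plus 1. Neurog2, Neurog3, Neurod2 and Olig3 are at 0 throughout, and C1 holds no count of any member.

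Having no count is not having no RNA, and the depth sets the limit. A count of 0 allows up to 3 counts, which over the 3 libraries of a group is 0.0379 CPM in knockout-labelled and 0.0381 CPM in control-labelled libraries. Per kilobase of annotated exon the limit is 0.0113 to 0.0227 CPM in knockout-labelled and 0.0114 to 0.0228 CPM in control-labelled libraries, depending on the length of the member. To show the scale, 117 genes called higher had at most 3 counts in all the control-labelled libraries together. The 112 of them with an annotated length had a median level of 0.666 CPM per kilobase in knockout-labelled libraries, with a lowest value of 0.0810, so 0 of them lay below the highest limit of a member. These genes entered the test through their knockout-labelled counts and set a scale only. Floors and intervals of counts describe counting error and nothing more, as no molecular identifiers are named in the labels. In sorted bulk cells, fewer cells that express a gene and less RNA per cell cannot be told apart.

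Silence in both groups was common among genes without a control-labelled count. Of the 5586 symbols without a control-labelled count, 4569 had no count in any library and 53 (0.949%) were called higher. Among protein-coding symbols the share was 50 of 3744, or 1.34%. 5 of the members (Neurog2, Neurog3, Neurod1, Neurod2 and Olig3) belonged to this set, and 0 of the 5 were called or tested. Over all symbols, 18.7% had no count in any library, and 15.3% of protein-coding symbols, against 44.4% of the 9 members. At most 3 counts in every library were found for 66.7% of the members and for 26.4% of all symbols.

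The neurogenins start neurogenesis. Neurog1 (chromosome 13, 56250478 to 56252163, minus strand, GENCODE M21 on GRCm38) and Neurog2 (chromosome 3, 127633135 to 127635631, plus strand) specify sensory and cortical neurons, and Neurog3 (chromosome 10, 62133090 to 62134763, plus strand) specifies the endocrine cells of pancreas and gut. Neurog1 had 0 counts in K1, K2 and K3, and 0, 2 and 0 counts in C1, C2 and C3. Only C2 held any, and both groups were at or under 3 counts, so no fold is given. With no count filter its edgeR adjusted p was 0.554. Neurog2 and Neurog3 had 0 counts in all 6 libraries.

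The NeuroD genes act after the neurogenins and drive differentiation of neurons, and Neurod1 also serves endocrine cells. Neurod1 (chromosome 2, 79452521 to 79456751, minus strand) had 0, 0 and 1 counts in K1, K2 and K3, and 0 counts in C1, C2 and C3. The single count was in K3, and with no count filter its edgeR adjusted p was 0.643. The annotated span of Cerkl overlaps Neurod1 on the same strand, and Cerkl had 2, 0 and 10 counts in K1, K2 and K3 and 0, 0 and 3 in C1, C2 and C3, so the 1 count cannot be told apart from a read of Cerkl. Neurod2 (chromosome 11, 98325415 to 98329648, minus strand), a factor of cortical and cerebellar neurons, had 0 counts in all 6 libraries.

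Olig1 and Olig2 are neighbours, 41095 bases apart on chromosome 16, and together specify oligodendrocytes. Olig1 (91269772 to 91271933, plus strand), which acts in oligodendrocyte maturation, had 0, 32 and 87 counts in K1, K2 and K3, and 0, 115 and 39 counts in C1, C2 and C3. As levels these were 0, 1.65 and 2.83 CPM in K1, K2 and K3, and 0, 5.03 and 1.33 CPM in C1, C2 and C3. The groups overlapped: K1 and C1 were both at 0, where up to 3 counts (0.104 CPM in K1 and 0.113 CPM in C1) remain possible, and K2 and K3 lay between C3 and C2. The mean was 1.49 ± 1.42 CPM in knockout-labelled and 2.12 ± 2.60 CPM in control-labelled libraries (SD, n = 3). The difference, -0.50 ± 1.61 on the log2 scale (SE), was not called by edgeR (adjusted p = 0.892), and an exact two-sided permutation test of the CPM gave p = 0.9. The sign rested on single libraries: the log2 fold change was 1.15 without C2 and 0.09 without K1. With replicates 2 and 3 alone the means were 2.24 CPM in knockout-labelled and 3.18 CPM in control-labelled libraries, -0.49 ± 0.70 on the log2 scale (SE; edgeR adjusted p = 0.695). With SEs of this size, only a large change of Olig1 could have been detected.

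**Figure D3:**
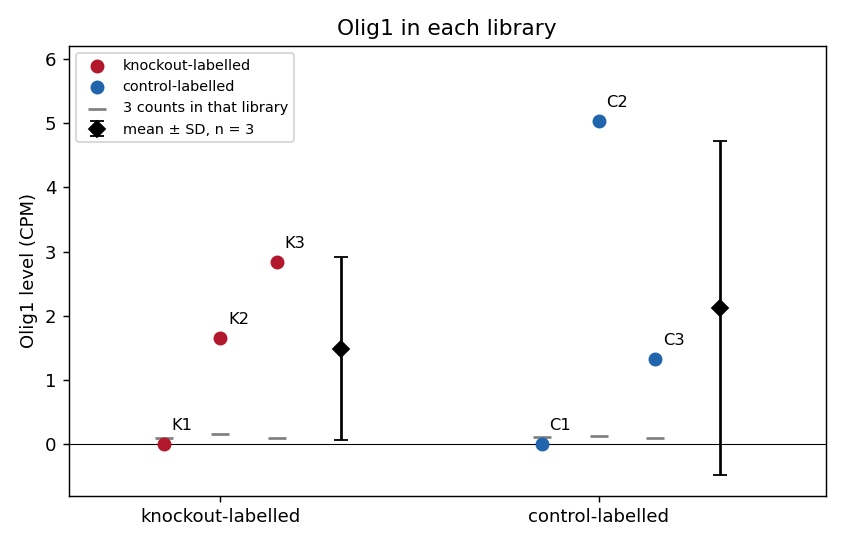
Level of Olig1 in CPM (y axis) in each knockout-labelled (red) and control-labelled (blue) library, with the mean and SD of 3 libraries in black and grey bars at the level of 3 counts in that library. K1 and C1 lie at 0, and the other 4 libraries range from 1.33 CPM in C3 to 5.03 CPM in C2.

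Few genes of a like level were missing from whole libraries. Of 1830 tested genes with a mean of 1 to 3 CPM over the 6 libraries, 70 (3.83%) had no count in at least 2 libraries, and Olig1, with a mean of 1.81 CPM, was among them. Its profile was most like those of Gtf2h3, a subunit of a general transcription factor, Golga4, a Golgi protein, and Manba, a lysosomal mannosidase. Pearson's r of log2(CPM + 1) with them was 0.996, 0.990 and 0.985 over 6 libraries, and Olig1 was put to this comparison after its values were seen. The 6 points share their libraries, and the 3 genes had counts in every library, so the likeness is a description.

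Olig2 (91225457 to 91228677, plus strand), which specifies motor neurons and oligodendrocyte progenitors, had 0, 2 and 0 counts in K1, K2 and K3, and 0, 5 and 0 counts in C1, C2 and C3. Only the replicate 2 libraries held any. The ratio of counts, knockout-labelled over control-labelled and scaled by library size, was 0.398 (95% counting interval 0.0379 to 2.43), and with no count filter the edgeR adjusted p was 0.815. Per kilobase, Olig1 averaged 0.690 CPM in knockout-labelled and 0.981 CPM in control-labelled libraries, and Olig2 averaged 0.0136 CPM in knockout-labelled and 0.0288 CPM in control-labelled libraries. Per length, the level of Olig1 was the higher of the pair in both groups. Olig3 (chromosome 10, 19356533 to 19358604, plus strand), a factor of dorsal spinal cord and hindbrain progenitors, had 0 counts in all 6 libraries.

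Bhlhe22 (chromosome 3, 18054174 to 18057517, plus strand) is a neuronal repressor needed for subtypes of dorsal horn and retinal neurons. It had 1, 0 and 0 counts in K1, K2 and K3, and 0, 4 and 7 counts in C1, C2 and C3. The counts lay mostly in C2 and C3, while C1 was at 0 like K2 and K3. The ratio of counts was 0.0905 (95% counting interval 0.0021 to 0.623), which leaves out the spread between libraries. An exact two-sided permutation test of the CPM gave p = 0.4, where 3 against 3 libraries cannot go below 0.1, and with no count filter the edgeR adjusted p was 0.440.

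The wider family of neural bHLH activators also held no gene called higher. Of 16 listed relatives, 6 (Neurod6, Atoh7, Ascl5, Ptf1a, Bhlhe23 and Ferd3l) had no count in any library and 6 had too few counts to test. Of the 4 tested 0 were higher and 1 was lower, against 7.17% higher and 2.98% lower over all tested genes. Ascl2, known from trophoblast and intestinal stem cells, fell: it had 2.60, 2.52 and 1.59 CPM in K1, K2 and K3, and 15.6, 6.73 and 8.89 CPM in C1, C2 and C3. The groups did not overlap, and on the log2 scale the fold change was -2.22 with an SE of 0.44 (edgeR adjusted p = 0.0152). The call was lost without K2 or without K3 (edgeR adjusted p = 0.0527 to 0.0566). Atoh1, named like Nhlh2 after its values were seen, had 0, 3 and 3 counts in K1, K2 and K3, and 1, 0 and 10 counts in C1, C2 and C3. Nhlh2, a factor of hypothalamic neurons, had 0 counts in K1, K2 and K3, and 0, 2 and 34 in C1, C2 and C3, so that C3 held nearly all of them.

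The dimer partners were present in every library. Tcf3 averaged 138 ± 33.5 CPM in knockout-labelled and 145 ± 61.9 CPM in control-labelled libraries, and Tcf12 averaged 206 ± 23.0 CPM in knockout-labelled and 210 ± 26.9 CPM in control-labelled libraries (SD, n = 3). Neither was called (edgeR adjusted p = 0.916 and 0.953). Tcf4 fell: it had 85.5, 74.9 and 80.2 CPM in K1, K2 and K3, and 158, 123 and 138 CPM in C1, C2 and C3, which did not overlap. The fitted log2 fold change was -0.80, with an SE of 0.17 (edgeR adjusted p = 0.0206), and the call was lost without C3, K2 or K3 (edgeR adjusted p = 0.0758 to 0.0969). The median log2 fold change of the 3 partners was -0.07, against 0.00 for all tested genes.

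Of 14 listed antagonists of proneural genes 9 were tested, and edgeR called 0 of them, against 10.2% of all tested genes. 2 of them, 1 higher and 1 lower, had an unadjusted p under 0.05, DESeq2 called 1 higher and 1 lower, and limma-voom called 1 higher. edgeR called 1 higher without C1 or without C3, and 2 with replicates 2 and 3 alone. The highest level in this list was that of Rest, the repressor of neuronal genes in other tissues. Rest had 139, 102 and 113 CPM in K1, K2 and K3, and 132, 115 and 137 CPM in C1, C2 and C3, or -0.11 ± 0.18 as a log2 fold change (SE; edgeR adjusted p = 0.772). Hes1, named after its values were seen, is the Notch effector that represses proneural genes, and it averaged 55.3 ± 3.43 CPM in knockout-labelled and 40.9 ± 15.5 CPM in control-labelled libraries (SD, n = 3; edgeR adjusted p = 0.367). Without C1 edgeR called Hes1 higher (adjusted p = 0.0450), and likewise with replicates 2 and 3 alone (0.0122). The 2 antagonists with an unadjusted p under 0.05, also named after their values were seen, were Hey1, another Notch effector, and Id1, an inhibitor of E-proteins. Hey1 had 5.57, 2.93 and 3.44 CPM in K1, K2 and K3, and 0, 0.175 and 0.992 CPM in C1, C2 and C3 (edgeR adjusted p = 0.101, and 0.0372 without C3). Id1 had 4.33, 3.50 and 2.63 CPM in K1, K2 and K3, and 8.33, 5.77 and 10.8 CPM in C1, C2 and C3 (edgeR adjusted p = 0.0836). For both genes the groups did not overlap, as for 32.4% of all tested genes. DESeq2 called Hey1 higher (adjusted p = 0.00596) and Id1 lower (0.0199), while limma-voom called Hey1 (0.0458). The median log2 fold change of the 9 was -0.11.

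Genes that proneural factors switch on in the nervous system were called in part. Of 18 listed targets 14 were tested, and 3 were higher and 1 lower, against 7.17% higher and 2.98% lower over all tested genes. Here and in the lists and neighbours below, a gene with few counts in 1 group entered the test only through the other group. Such a gene could hardly be called in the opposite direction, so these shares are a description. Isl1, a LIM homeobox factor of motor and sensory neurons and of Merkel cells, averaged 3.12 ± 1.03 CPM in knockout-labelled libraries (SD, n = 3) and was not counted in control-labelled ones, at least 85.0-fold higher against 3 counts over the group (edgeR adjusted p = 0.00465). Ebf3, a factor of neuronal differentiation, had 23.4, 22.7 and 17.5 CPM in K1, K2 and K3, and 1.54, 0.787 and 6.36 CPM in C1, C2 and C3 (edgeR adjusted p = 0.0310). The corepressor Cbfa2t3 averaged 34.0 ± 34.6 CPM in knockout-labelled libraries, led by K1, and 5.34 ± 1.82 CPM in control-labelled ones (SD, n = 3; edgeR adjusted p = 0.0384). Without K1 its log2 fold change was 1.40, against 2.67 with all libraries.

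The Notch ligand Dll1, a direct target of neurogenins in the neural tube, fell to 29.3 ± 5.30 CPM in knockout-labelled libraries, against 60.4 ± 10.0 CPM in control-labelled ones (SD, n = 3; edgeR adjusted p = 0.0205). The early target Neurod4 had 1 count in each group, and Nhlh1 had 18 counts in knockout-labelled and 20 in control-labelled libraries. The median log2 fold change of the 14 was 1.23. The 3 higher targets became 1 without C1, and DESeq2 called 6 higher. Ebf3 was not called without C1, K1, K2 or K3 (edgeR adjusted p = 0.0593 to 0.0981), nor Cbfa2t3 without C1, C2 or C3 (0.0813 to 0.125), with the GC and length offset (0.0709) or by limma-voom (0.108), nor Dll1 without C2 or K2 (edgeR adjusted p = 0.0802 to 0.0851).

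**Figure D4:**
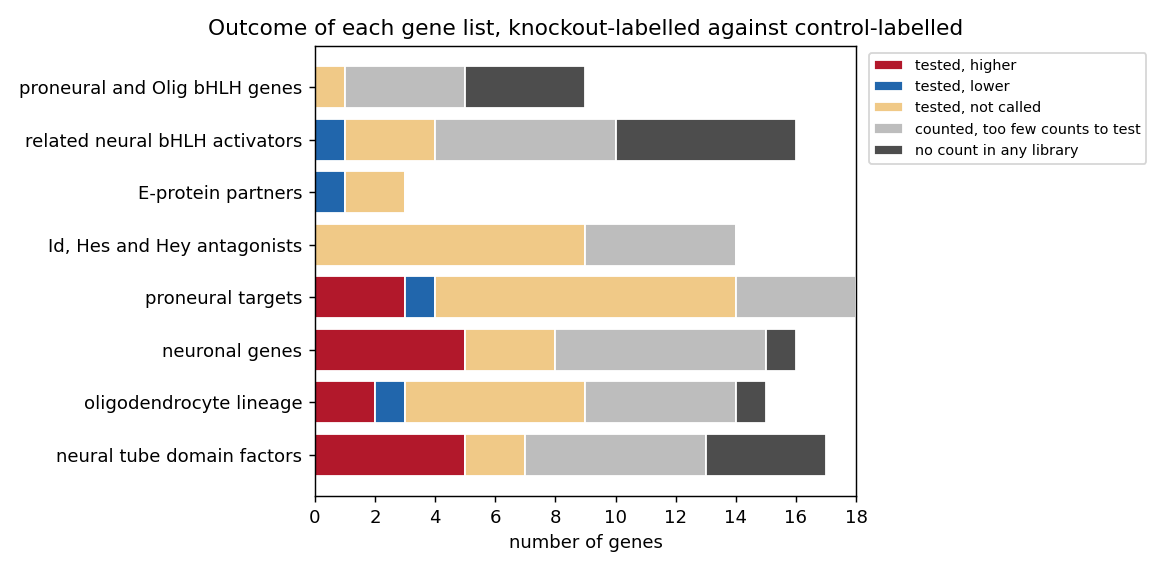
Number of genes (x axis) in each list (rows) that were called higher or lower in knockout-labelled libraries, tested but not called, counted but too low to test, or without a count in any library. Of the 9 proneural and Olig genes 1 was tested, and of the 16 related activators 4, with 0 higher in both lists. Of the 17 neural tube domain factors 7 were tested and 5 were higher. Of the 16 neuronal genes 8 were tested and 5 were higher. Over all tested genes 7.17% were higher.

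Neuronal structural genes were higher in part. Of 16 listed, 8 were tested and 5 were higher, with 0 lower, against 7.17% higher and 2.98% lower over all tested genes. Nefh, Tubb3, Ina and Elavl2, with 3, 11, 27 and 37 control-labelled counts, passed the count filter only with their knockout-labelled counts. Ina, an intermediate filament subunit of neurons, had 534, 388 and 340 counts in K1, K2 and K3, and 2, 14 and 11 counts in C1, C2 and C3, or 5.54 ± 0.64 as a log2 fold change (SE; edgeR adjusted p = 0.00159). The heavy neurofilament chain Nefh had 334 counts in knockout-labelled and 3 in control-labelled libraries, and the scaled ratio was 111 (95% counting interval 37.6 to 540.0; edgeR adjusted p = 0.00282). Its partner Nefl had no count in any library. Tubb3, the neuronal beta-tubulin, averaged 5.51 ± 3.65 CPM in knockout-labelled and 0.138 ± 0.0299 CPM in control-labelled libraries (SD, n = 3; edgeR adjusted p = 0.00580), and limma-voom did not call it (adjusted p = 0.0837). Map2, a dendritic microtubule protein, averaged 20.3 ± 0.742 CPM in knockout-labelled and 7.81 ± 3.76 CPM in control-labelled libraries (SD, n = 3; edgeR adjusted p = 0.0398). Its call was lost with the GC and length offset (0.0757) and without C1, C3, K1, K2 or K3 (edgeR adjusted p = 0.0650 to 0.128). The fifth, Elavl2, a neuronal RNA-binding protein named after its values were seen, averaged 4.38 ± 1.90 CPM in knockout-labelled and 0.474 ± 0.478 CPM in control-labelled libraries (SD, n = 3; edgeR adjusted p = 0.0448). Its call was lost without C2, C3, K1, K2 or K3 (edgeR adjusted p = 0.0701 to 0.120).

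The 5 neuron markers all belong to the neuronal list above as well, so they are no separate set. Of these 5, 2 were tested and 0 called, against 10.2% of all tested genes. The other 3 had too few counts to test. The tested Rbfox3 had 132 counts in knockout-labelled and 29 in control-labelled libraries. Its log2 fold change was 2.13 ± 1.09 (SE; edgeR adjusted p = 0.276). Snap25, also tested, had 47 counts in knockout-labelled and 45 in control-labelled libraries. Stmn2 had 3 counts in knockout-labelled and 36 in control-labelled libraries, Elavl3 had 20 in knockout-labelled and 14 in control-labelled ones, and Syt1 had 10 in knockout-labelled and 20 in control-labelled ones. Summed over the 5, levels were 2.25 to 3.76 CPM in knockout-labelled and 1.31 to 2.93 CPM in control-labelled libraries. Merkel cell markers moved with the labels in part. Their summed level over 7 genes was 54.4 to 104 CPM in knockout-labelled and 4.85 to 10.1 CPM in control-labelled libraries. Of the 4 tested, 4 were higher, against 7.17% of all tested genes. Most of the sum was Krt18 (mean 37.6 CPM in knockout-labelled and 0.851 in control-labelled libraries) and Piezo2 (25.8 and 6.66). Sox2 and Isl1, also called higher, had 243 and 256 counts in knockout-labelled libraries and 0 in control-labelled ones (edgeR adjusted p = 0.00406 and 0.00465). Both entered the test only through their knockout-labelled counts. The other 3 markers were too low to test. Atoh1 had 6 counts in knockout-labelled and 11 in control-labelled libraries, and Krt8 had 67 and 38. Krt20 had 71 and 7, with 63 of the 71 in K1. The part of Merkel cells in the Isl1 and neuronal gene results was not tested. The 5 higher neuronal genes became 3 without C3, K1, K2 or K3 and 2 with replicates 1 and 2 alone.

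Of 15 genes of the oligodendrocyte lineage 9 were tested, and 2 were higher and 1 lower, against the same 7.17% and 2.98% of all tested genes. Myrf, the myelin gene regulator, had 37.2, 16.9 and 14.5 CPM in K1, K2 and K3, and 0.525, 0.175 and 0.513 CPM in C1, C2 and C3, or 5.78 ± 0.57 as a log2 fold change (SE; edgeR adjusted p = 0.000895). Nkx6-1, which helps to set the neural tube domain of Olig2, rose: it averaged 5.04 ± 1.57 CPM in knockout-labelled libraries (SD, n = 3) and was not counted in control-labelled ones, at least 135-fold higher against 3 counts over the group (edgeR adjusted p = 0.00225). Zfp488, a corepressor that acts with Olig2, had 0 counts in knockout-labelled libraries and 1.29 ± 0.800 CPM in control-labelled ones (SD, n = 3), at least 34.1-fold lower (edgeR adjusted p = 0.0168, and 0.0586 without C1). Mag, a myelin protein named after its values were seen, had 1 count in all, in C3. DESeq2 called 4 genes of this list higher. Summed markers of Schwann and neural crest cells, a list that shares genes with this one, were 89.2 to 113 CPM in knockout-labelled and 77.8 to 105 CPM in control-labelled libraries, with 0 of 5 tested called.

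Factors that mark the neural tube domains in which Olig and proneural genes act rose in part. Of 17 listed 7 were tested, and 5 were higher and 0 lower, again against 7.17% and 2.98% of all tested genes. Nkx2-9, a factor of the ventral neural tube, had 475 counts in knockout-labelled libraries and 1 in control-labelled ones, a ratio of 473 (95% counting interval 84.5 to 18700). Pax6, of the ventral domains and the eye, averaged 12.4 ± 3.38 CPM in knockout-labelled and 0.854 ± 0.703 CPM in control-labelled libraries (SD, n = 3). Lmx1a, of the roof plate, averaged 4.93 ± 1.67 CPM in knockout-labelled and 0.387 ± 0.146 CPM in control-labelled ones. Pax3, of the dorsal neural tube and neural crest, averaged 14.3 ± 1.69 CPM in knockout-labelled and 0.513 ± 0.340 CPM in control-labelled ones. The edgeR adjusted p of these 4 was 0.00114 to 0.00652. The fifth, Irx3, named after its values were seen, had 938, 241 and 280 counts in K1, K2 and K3, and 87, 142 and 95 counts in C1, C2 and C3 (edgeR adjusted p = 0.0393). The Irx3 call was lost without C1, C3, K1 or K2 (edgeR adjusted p = 0.0639 to 0.132), with replicates 2 and 3 alone (0.0816), with the GC and length offset (0.178) and by limma-voom (0.0718), and without K1 the log2 fold change was 1.35 against 2.09 with all libraries. Pax3 is also a gene of melanocyte precursors, and summed melanocyte markers were 16.1 to 25.6 CPM in knockout-labelled and 12.5 to 15.0 CPM in control-labelled libraries, with 0 of 4 tested called and their part in the Pax3 result not tested. Dbx2, Gsx1, Gsx2 and Foxa2 had no count in any library. The median log2 fold change of tested genes was 3.23 for the neuronal list, 0.69 for the oligodendrocyte list and 3.65 for the domain list, against 0.00 for all tested genes. A gene silent in control-labelled libraries could be tested only if knockout-labelled libraries counted it. These medians and the counts of higher genes therefore describe the tested genes and no others. The 5 higher domain factors became 2 with replicates 1 and 2 alone.

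**Figure D5:**
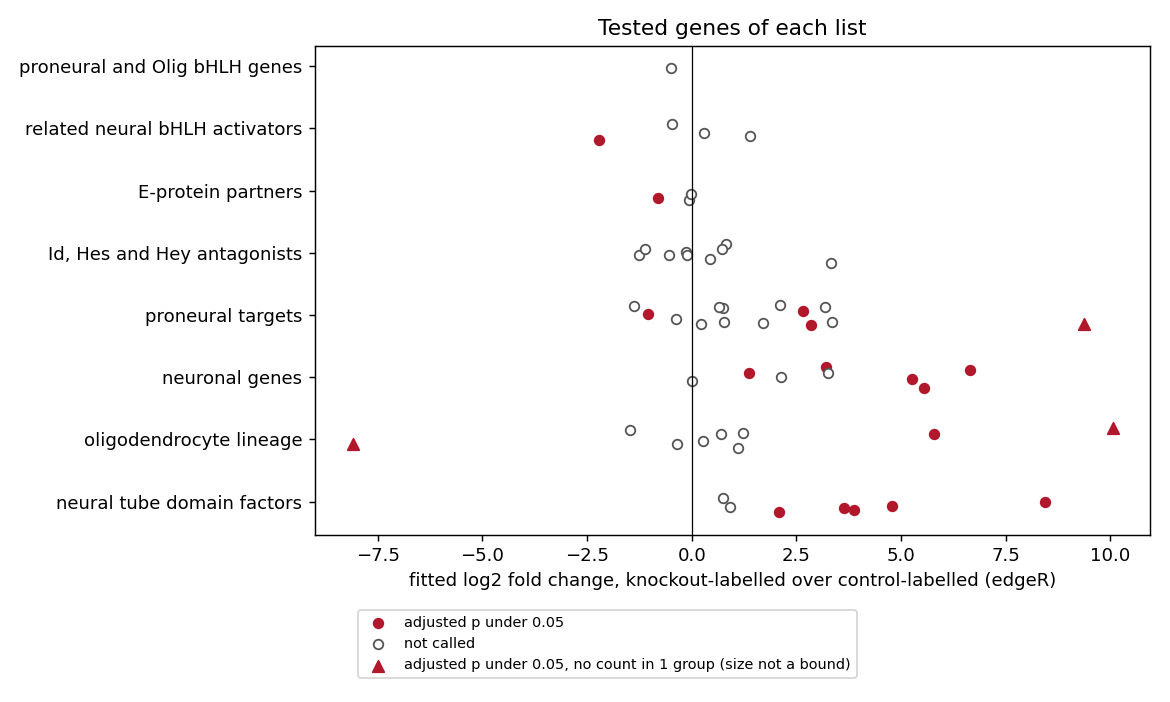
Fitted log2 fold change of each tested gene (x axis, knockout-labelled over control-labelled) by list (rows, with points spread vertically for legibility). Filled symbols passed an adjusted p under 0.05 and open circles did not, and triangles mark Isl1, Nkx6-1 and Zfp488, whose fitted size is no bound because 1 group had no count. Olig1 stands alone in the top row at -0.50.

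The genomic neighbours of the members were examined last. The nearest genes of the count files on both sides, leaving aside Cerkl, which overlaps Neurod1, gave 18 distinct genes, Olig1 and Olig2 among them as neighbours of each other. Of these, 13 were tested and 3 were called, all higher, against 7.17% of all tested genes. Of those called, Ppp1r1b and Cyp7b1 entered the test through their knockout-labelled counts. Ppp1r1b, the phosphatase inhibitor DARPP-32 of dopamine-responsive neurons, lies 18756 bases from Neurod2 and had 73, 108 and 205 counts in K1, K2 and K3, and 0, 0 and 3 counts in C1, C2 and C3, a ratio of 128 (95% counting interval 43.5 to 624; edgeR adjusted p = 0.00501). Alpk1, a kinase of innate immunity 34679 bases from Neurog2, had 17.8, 10.9 and 12.7 CPM in K1, K2 and K3, and 2.25, 4.50 and 4.31 CPM in C1, C2 and C3 (edgeR adjusted p = 0.0157). Both genes, named because they were called, separated the groups fully, as did 32.4% of all tested genes. The members beside them, Neurod2 and Neurog2, had no count.

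Cyp7b1, an oxysterol hydroxylase 14433 bases from Bhlhe22, had 0.865, 1.65 and 1.14 CPM in K1, K2 and K3, and 0.0750, 0.0874 and 0.137 CPM in C1, C2 and C3 (edgeR adjusted p = 0.0278). This call was lost without C1, C2, C3, K2 or K3 (edgeR adjusted p = 0.0821 to 0.125), with no count filter (0.0528) and by limma-voom (0.0636). Members with no count or few also lay beside genes read in every library: Cdk12, 46911 bases from Neurod2, had 218 to 349 CPM in knockout-labelled and 261 to 309 CPM in control-labelled libraries, and Cxcl14, 36480 bases from Neurog1, had 155 to 247 CPM in knockout-labelled and 197 to 266 CPM in control-labelled libraries. Ifnar2, 100850 bases beyond Olig1, was counted in every library and not called (edgeR adjusted p = 0.214), and Cdk12, Cxcl14 and Ifnar2 were named after their values were seen.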

How the data were processed

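RNA sequencing measured gene expression in 3 libraries labelled Ring1a-/- Ring1b-/- and 3 labelled Control. Per the labels' protocols, RNA (10 ng) was amplified with Ovation V2, and libraries from 100 ng of cDNA were read from 1 end to 100 nucleotides. The authors deposited raw counts per gene symbol, 1 file per sample. Per the submitters' processing notes, DESeq2 1.6.3, HTSeq 0.6.1, Cufflinks 2.2.1, TopHat2 2.0.13 and the build mm10 were used. The annotation and strand setting are not given in the sources used here. Overlapping and antisense genes may share reads. Groups came from the sample titles.

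Counts were fitted with edgeR 4.0.16 in R 4.3.3 (TMM, filterByExpr at a count of at least 10 and a total of at least 15, two-sided quasi-likelihood F test, no covariate, Benjamini-Hochberg adjustment over 14890 genes, threshold 0.05, prior count 0.125 for fold changes). The prior count makes the fitted fold of a gene without counts in 1 group no bound. ± is the SD of 3 libraries or, for log2 fold changes, an SE derived from the edgeR test. That SE is the absolute log2 fold change divided by the square root of the quasi-likelihood F, so it is approximate. Ratios of counts have exact 95% intervals. Exact permutation tests used scipy 1.17.1. The pipeline was tested on simulated counts. Among 66, 65 and 59 genes changed 2-fold, 4-fold and 16-fold, it called 7.58%, 67.7% and 91.5%, with 14 false calls. A run without changes gave 0 calls. A gene that was not called may therefore still have changed. No pair of libraries within a group was a copy of another, with a lowest chi-square per degree of freedom of 30.1. Positions and exon lengths are from GENCODE M21 on GRCm38 (23753 symbols matched 1 gene, with all 9 members among them). Alternatives were DESeq2 1.42.0 (size factors and test), limma-voom (limma 3.58.1), library size alone, no filter, 50 counts in 3 libraries, a replicate block, each library left out, replicates 1 and 2 or 2 and 3 alone, and an offset for GC content and length (known for 97.8% of tested genes). Figures used matplotlib 3.10.9.

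Members were taken by symbol, and they and the lists were chosen with earlier results of these data known. Named genes are the members, Ring1 and Rnf2, up to 4 called genes of each list by p (or the highest in level), called neighbours and, for called members, the 3 most correlated genes. No member was called. Other names were chosen after their values were seen. Some listed genes are not reported here by name. Of the marker lists, those of basal epidermis (1 of 7 tested lower), hair follicle (2 of 6 lower) and Merkel cells (4 of 4 higher) held calls, and those of melanocytes, Schwann cells, neurons, fibroblasts, endothelium, immune cells and muscle held none. Over all tested genes 10.2% were called.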

Additional observations from a re-analysis of the deposited data

How the results depend on the processing

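The count of called members was 0 under all 16 alternatives, but 0 members could be tested with 50 counts in 3 libraries, 1 in most settings and 5 without a count filter and with DESeq2. Olig1 had a log2 fold change of -1.38 to 1.15 when 1 library was left out, and it reversed without C2 (1.15) and without K1 (0.09). In the other settings it was lower and not called, from -1.63 to -0.25. The replicate numbers correlated in deviation by 0.175, 0.228 and 0.0773 for numbers 1, 2 and 3, so not every pair was above 0.1. Every library correlated best with its own number, a hint from the data and not from the design. With the replicate block 1451 genes were called (1016 higher, 435 lower), with 13 higher and 3 lower genes in the context lists and a log2 fold change of -0.25 for Olig1. Under the block the edgeR adjusted p was 0.0599 for Cbfa2t3, 0.0506 for Zfp488, 0.0573 for Irx3 and 0.0671 for Cyp7b1, and no other call among the 35 genes listed by setting was lost.

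The count of all called genes was 811 to 1393 with 1 library left out (630 to 957 higher, 174 to 436 lower), 439 with replicates 1 and 2 alone (354 higher, 85 lower), 2694 with replicates 2 and 3 alone (1633 higher, 1061 lower) and 2560 with DESeq2 (1683 higher, 877 lower). The offset for GC and length called 1048 lower genes and 874 higher, so 45.5% were higher against 70.6%, and shifted the median over all genes to -0.15 on the log2 scale. Under it Olig1 was at -1.29 (edgeR adjusted p = 0.648). The 7 context lists held 15 higher and 4 lower genes. With replicates 1 and 2 alone they held 8 higher and 0 lower, and Alpk1, Ascl2, Cbfa2t3, Cyp7b1, Dll1, Elavl2, Irx3, Lmx1a, Map2, Pax6, Tcf4, Trp63, Tubb3 and Zfp488 were not called (edgeR adjusted p = 0.0504 to 0.271). Leaving out 1 library gave 11 to 13 higher and 1 to 4 lower, with 1 lower without K2 and 2 without K3. The cause of these moves was not tested. Over 35 genes and 16 alternatives, 67 values lost their call, 6 (of Hes1, Hey1 and Id1) gained one and 15 reversed. Beside Olig1 the reversed values were of genes near 0 that were called in none of these settings. With 1 library left out their log2 fold changes were -0.28 to 0.087 for Cdk12, -0.26 to 0.067 for Cxcl14, -0.12 to 0.077 for Tcf12 and -0.28 to 0.33 for Tcf3. With replicates 1 and 2 alone Cdk12 was at 0.031, and with replicates 2 and 3 alone Cxcl14 was at 0.22 and Tcf3 at 0.12. The depth limits a statement of silence to levels above the floors given.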

Other observations

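Olig1 shared an unusual count profile with few genes. It was 1 of 3 tested genes of 14890 that had 0 counts in both K1 and C1 and at least 30 in each of the other 4 libraries. Another was Lce1m, a late cornified envelope gene, with 0, 222 and 173 counts in K1, K2 and K3, and 0, 191 and 168 counts in C1, C2 and C3. With more than 3 counts in the other 4 libraries, 7 tested genes were at 0 in both replicate 1 libraries, 6 in both replicate 2 libraries and 0 in both replicate 3 libraries. The names were chosen after the values were seen.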
